A study of Mus musculus with 4 samples.

Results

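Osr1 and Osr2 are the mouse odd-skipped related genes, and the microarray annotation assigned 1 probe to each of them. Both were taken by symbol, as 2 of 16637 named genes and 2 of 29922 probes. They were selected on their log2 intensities in the Bmp4 overexpression contrast itself, so their differences are given below as a description, with no test. The label was checked against the gene names. Osr1 is also an old synonym of Oxsr1, a stress-responsive kinase gene on another chromosome. Oxsr1 has a probe of its own in the annotation, and the probe named Osr1 was kept as the odd-skipped gene. No probe sequence was available, so the identity of this probe rests on the annotation and was not tested.

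Whole mandibles of C57BL/6 mouse embryos at E11.5 were profiled on 4 one-colour arrays labelled with Cy5. The control group was wild-type, with 2 arrays. The Bmp4 overexpression (OE) group carried conditional Bmp4 overexpression and had doxycycline (dox) for 24 hours, also with 2 arrays. The labels do not say whether controls also had doxycycline, which promoter drives the transgene, or whether each array held separate embryos. Drug, transgene and BMP4 effects therefore cannot be told apart. The p-values below measure only the spread between these arrays, which may be technical, and the small number of arrays limits the precision.

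The odd-skipped family encodes zinc finger transcription factors, named after odd-skipped, a segmentation gene of Drosophila. In mice, Osr2 is known for the growth of the palatal shelves and for keeping molar teeth in a single row, where it restrains Bmp4 and Msx1 activity in the mesenchyme next to the tooth germ. Osr1 is known for the heart, the kidney and connective tissue, and both genes act together in joint formation. BMP4 is a secreted growth factor, and MSX1 is a homeodomain factor that both responds to it and maintains its expression in dental mesenchyme.

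Osr2 was high in control mandibles and low in overexpressing ones. Its probe (mMC004895) read 12.72 and 12.92 in control replicates 1 and 2, and 9.01 and 9.28 in OE replicates 1 and 2 (normalised log2 intensity). Both OE arrays lay far below both control arrays, an order that 31.0% of all probes shared by gaps of any size. The control mean was 12.82 ± 0.14 and the OE mean 9.145 ± 0.19 (SD, n = 2 each). The log2 difference, OE minus control, was -3.675, a level 12.8-fold lower. Taken array against array, the 4 possible pairs gave log2 differences from -3.91 to -3.44.

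Osr1 moved the same way by less. Its probe (mMC001020) read 13.01 and 12.57 in the control arrays, and 10.51 and 10.37 in the OE arrays. The groups did not overlap, as for the 31.0% of all probes with both OE arrays below both controls. The higher of the OE arrays was still 2.06 log2 units below the lower control. The control mean was 12.79 ± 0.31 and the OE mean 10.44 ± 0.10 (SD, n = 2 each). The log2 difference was -2.35, a level 5.10-fold lower, with array pairs from -2.64 to -2.06.

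The ranges of the array pairs did not meet, since the largest fall of Osr1, -2.64, was smaller than the smallest of Osr2, -3.44. The difference of Osr2 exceeded that of Osr1 by 1.325 log2 units, a ratio of the 2 folds of 2.51. Because probes can differ in how steeply they respond, this compares probe readings and not transcripts per cell. In whole mandibles, fewer cells with the transcript and less transcript per cell cannot be told apart.

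**Figure D1:**
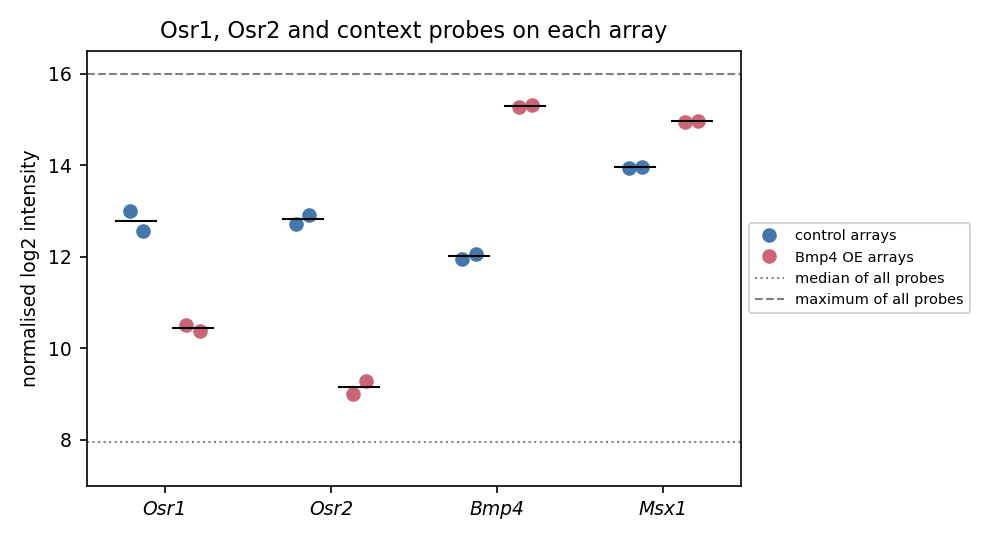
Normalised log2 intensity of the Osr1, Osr2, Bmp4 and Msx1 probes on each array, with control arrays in blue, Bmp4 OE arrays in red and group means as black bars. Both odd-skipped probes fall between the control and OE arrays (Osr2 from 12.82 to 9.145, Osr1 from 12.79 to 10.44) and stay above the median of all probes, 7.95, while Bmp4 and Msx1 rise.

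Both genes remained readable after induction. On the control arrays the Osr2 probe was brighter than 94.8% and 95.5% of all probes, and on the OE arrays it was brighter than 65.4% and 68.6%. The Osr1 probe was brighter than 95.8% and 94.2% on the control arrays and than 80.9% and 79.7% on the OE arrays. All of these readings lay above the median of all probes, 7.95, and below the maximum of 16, so neither difference ran into the end of the scale.

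The replicate arrays of 1 group differed for the members as for other probes, with 1 wide gap. The control arrays differed by 0.44 log2 units for Osr1, a gap larger than that of 93.5% of all probes. The OE arrays differed by 0.14 for Osr1, larger than for 50.2%. For Osr2 the gaps were 0.20 between controls and 0.27 between OE arrays, larger than for 66.0% and 79.0% of probes. Each of these gaps was a small part of the difference between the groups.

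Among all 29922 probes, ordered from the largest fall, Osr2 was number 3 and Osr1 number 24. The 2 probes ahead of Osr2 were those of Cbln4 and of Olfr180, an odorant receptor gene. Olfr180 read 14.54 and 6.50 in controls and 6.87 and 6.45 in OE arrays, so its place rests on control replicate 1 alone and its groups overlap. The middle of the distribution was narrow. The median log2 difference was 0, and 1% of probes lay below -1.124. Both OE arrays lay below both control arrays for 31.0% of all probes, so that order by itself is common here. At an adjusted p of 0.05 (limma, Benjamini-Hochberg over all probes), 8.41% of probes were lower in OE, and nothing is read from the members' place among them because this contrast chose them.

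**Figure D2:**
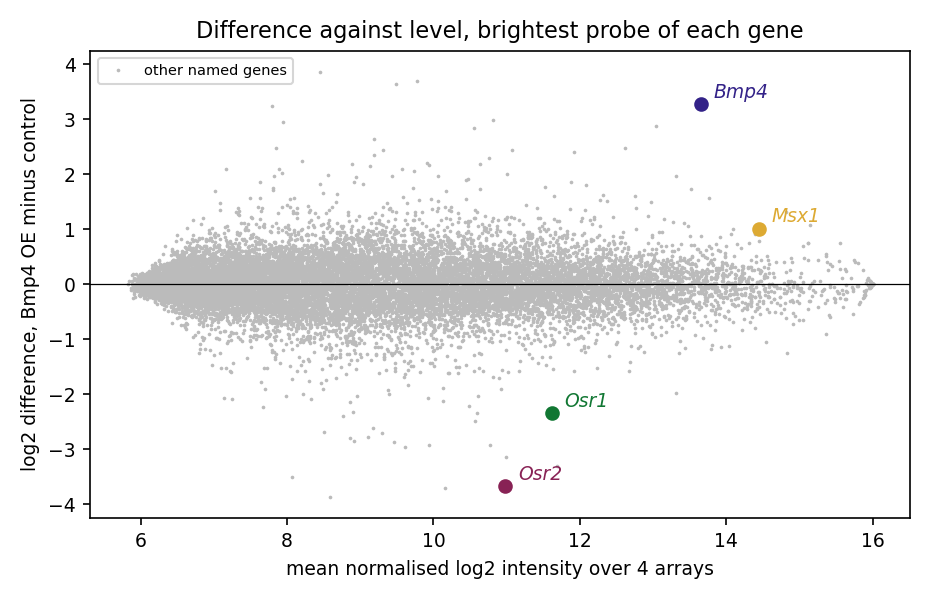
Log2 difference (Bmp4 OE minus control) against the mean normalised log2 intensity over 4 arrays for the brightest probe of each of 16637 genes. Osr2, at -3.675, and Osr1, at -2.35, were chosen from this contrast and lie below most other genes. Bmp4 lies above most other genes, at 3.275.

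The Bmp4 probe served as the check of the induced gene. It read 11.96 and 12.07 in controls and 15.27 and 15.31 in OE arrays, a rise of 3.275 ± 0.11 (SE) log2 units (limma, adjusted p = 0.00137). The Msx1 probe read 13.94 and 13.96 in controls and 14.95 and 14.97 in OE arrays, a rise of 1.01 ± 0.10 (SE; limma, adjusted p = 0.00741). The 4 array pairs spanned 0.99 to 1.03 for Msx1. Each limma call in this and the following paragraphs rests on all 4 arrays. Leaving out control replicate 1, control replicate 2, OE replicate 1 or OE replicate 2 left 0 probes past the adjusted threshold, with lowest adjusted p-values of 0.191, 0.138, 0.17 and 0.155. At an unadjusted p under 0.05, between 6020 and 7947 probes passed in those fits. The OE levels of both probes approached the maximum of 16, where differences may be compressed, which was not tested. Oxsr1, the namesake kinase gene, read 10.62 and 10.49 in controls and 10.01 and 10.23 in OE arrays, and its log2 difference of -0.435 did not pass (limma, adjusted p = 0.0737).

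The tissue label was checked with markers, whose counts are set against the 16.9% of all named genes that passed in either direction. That share includes many dim genes, of which these lists and those below hold few, and it is higher among brighter probes. With the probes below the median left out, 4141 still passed, against 4427 of all 29922. A list share above 16.9% is therefore not read as an excess. All 7 mesenchyme markers of the mandible were read above the lower quartile of probes. Of these, 28.6% passed, since Prrx2 rose by 1.165 log2 units and Twist1 fell by 1.185, and Prrx1, Pdgfra, Hand2, Dlx5 and Dlx6 did not pass. Of 7 epithelial markers, 71.4% passed, as Krt8, Krt18, Cdh1 and Cldn6 rose and Krt14 fell. For muscle 2 of 5 rose (Des and Actc1, 40%). Of 4 erythroid markers 1 fell (Alas2, 25%). The globin genes Hbb-y, Hba-x and Hbb-bh1 had group means from 15.77 to 16, at or near the maximum, where a rise could hardly be read. For endothelium 1 of 5 rose (Cldn5, 20%), for macrophages 1 of 5 (Adgre1, 20%) and for neurons 1 of 6 (Isl1, 16.7%), shares close to that of all named genes. The rise of Isl1 was large, at 2.98 log2 units (limma, adjusted p = 0.00137). All neuron markers had log2 differences above 0, from 0.185 to 2.98 with a median of 0.41. The medians for endothelium and macrophages were 0.39 each.

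The summed linear intensity of a marker list follows its brightest probes. For mesenchyme it was 49856 to 50378 in controls and 40513 to 40827 in OE arrays, and Twist1 had the largest change in it. For epithelium it was 37030 to 38886, then 31798 to 33121, a fall set by Krt14 although 4 markers rose. For neurons it was 25738 to 35611, then 52815 to 54669, mostly through Elavl3, which did not pass. The sums were 5904 to 6082, then 7230 to 7556 for endothelium, and 4494 to 4610, then 6078 to 6343 for muscle. They were 1359 to 1425, then 1981 to 2049 for macrophages, and 197127 to 203444, then 191628 to 195284 for erythroid cells. The erythroid sums come mostly from the globin probes at or near the maximum. Array intensities have no true zero. The part of these marker differences in the falls of Osr1 and Osr2 was not tested.

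Genes that work with Osr2 in the tooth went both ways. Of the 16 measured, 6 fell, 3 rose and 7 did not pass (limma, adjusted over all probes). That is 56.2%, against 16.9% of all named genes, of which 9.54% fell and 7.39% rose. The list's median log2 difference was -0.30, against 0 for all named genes. It includes Bmp4 itself, the induced gene, and was assembled with earlier results of these arrays known.

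Barx1, which encodes a homeodomain factor of the mesenchyme under the molars, had the largest difference of the list after Bmp4. It read 12.57 and 12.55 in controls and 9.37 and 9.46 in OE arrays, a fall of 3.145 ± 0.10 log2 units (SE; limma, adjusted p = 0.00137). Both OE arrays lay well below both controls. Sfrp2, a secreted WNT antagonist that Osr2 is known to promote in dental mesenchyme, read 14.30 in both controls and 12.28 and 12.36 in OE arrays, a fall of 1.98. Dkk2, the other WNT antagonist of that circuit, read 10.95 and 11.10, then 10.79 and 10.67, and its log2 difference of -0.295 did not pass (limma, adjusted p = 0.142). Lhx8, which encodes a LIM-homeodomain factor of jaw mesenchyme, fell by 1.465, and its second probe fell by 1.155.

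The members that rose beside Bmp4 were both Msx genes. Msx2 rose by 1.73 log2 units, from 12.59 and 12.71 to 14.31 and 14.45. Pax9, a paired box factor of dental mesenchyme, read 7.58 and 7.66 in controls and 7.70 and 7.56 in OE arrays. Its log2 difference of 0.01 did not pass, and its groups overlapped. The Pax9 control mean of 7.62 lay below the median of all probes, 7.95. That is too near the minimum of the scale for a fall like that of Osr1 to be read.

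Mesenchymal genes of the palatal shelf, the tissue in which Osr2 is best known, also split. Of 21 measured genes, 6 fell, 5 rose and 10 did not pass, or 52.4% against 16.9% of all named genes. The median log2 difference was 0.095. The falls were led by Barx1, by the homeobox gene Shox2, which fell by 2.92 at its brightest probe and by 2.905 at the other, and by the homeobox gene Meox2, which fell by 2.855. Has2, which makes hyaluronan, read 10.92 and 11.00 in controls and 8.74 and 9.05 in OE arrays, a fall of 2.065 (limma, adjusted p = 0.0034). Fgf10, a mesenchymal growth factor of the palate and tooth, fell by 1.35, and its second probe by 1.135. The genes that rose were Msx1, Tbx3, Foxf2, Fgfr2 and Sema3d, by 1.01 log2 units or less.

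**Figure D3:**
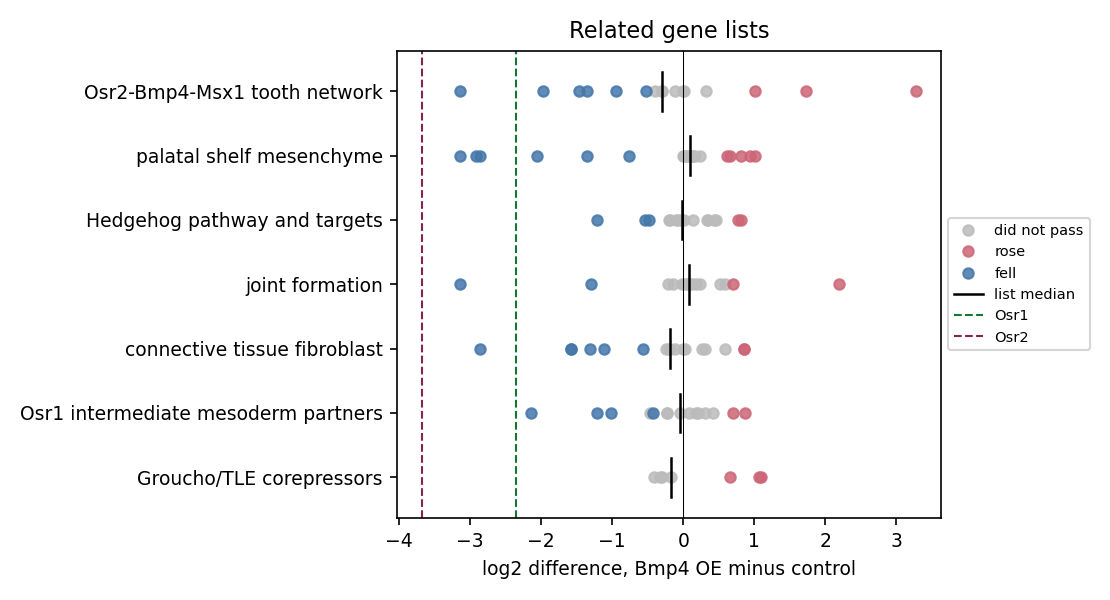
Log2 difference (Bmp4 OE minus control) of every measured gene in 7 lists related to Osr1 and Osr2, coloured by the limma call, with each list's median as a black bar and the 2 odd-skipped genes as dashed lines. No list gene falls as far as Osr2 (-3.675), and Barx1, Shox2 and Meox2 fall further than Osr1 (-2.35). Osr1 and Osr2 were chosen from this contrast, so their place beyond most list genes is not a result.

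Hedgehog signalling is known to induce Osr2 in the palate, and most of its genes here did not pass. Of 16 measured genes, 3 fell, 2 rose and 11 did not pass, or 31.2% against 16.9%, with a median log2 difference of -0.0125. The ligand gene Shh rose by 0.775, from 9.28 and 9.57 to 10.25 and 10.15. The receptor and target gene Ptch1 had a log2 difference of 0.44 (limma, adjusted p = 0.0777) and the target factor Gli1 one of -0.08, and neither passed. The target Hhip fell by 0.48, a call that was lost with a variance trend (limma, adjusted p = 0.0595). Cdon, a co-receptor gene, fell by 0.535 between readings low on the scale. The largest fall was that of the forkhead gene Foxd1, by 1.21 (limma, adjusted p = 0.0095), while the forkhead gene Foxf2 rose by 0.82.

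Joint genes, which Osr1 and Osr2 are known to regulate together in the limb, had 2 falls and 2 rises among 16 measured members, and 12 did not pass. This is 25% against 16.9% of all named genes, dim ones included, with a median log2 difference of 0.075. Besides Barx1, Wnt9a, a WNT ligand of forming joints, read 9.92 and 9.81, then 8.61 and 8.53. That is a fall of 1.295 at its brightest probe, while its dimmer probe had a log2 difference of -0.11 and did not pass. Nog, a secreted BMP antagonist, rose by 2.195, from 8.67 and 8.97 to 10.96 and 11.07, and Sox9, the cartilage regulator, rose by 0.695. Gdf5, the usual marker of joint interzones, read 9.20 and 9.56, then 9.71 and 9.52, with overlapping groups and a log2 difference of 0.24 that did not pass. Col2a1, the cartilage collagen, had a log2 difference of 0.52 at its brightest probe and did not pass (limma, adjusted p = 0.052). It passed with the log offset, with either filter on dim probes and with a variance trend (adjusted p = 0.0247 to 0.0482). With the mean of its probes it did not pass (limma, adjusted p = 0.0676). Its other probes, with log2 differences of 0.13 and 0.32, did not pass either.

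Connective tissue genes, a programme known to depend on Osr1 in the limb, had 6 falls, 2 rises and 9 that did not pass among 17 measured. This is 47.1% against 16.9%, with a median log2 difference of -0.185. Meox2 led the falls. Twist2, a helix-loop-helix factor of dermal and skull mesenchyme, read 12.63 and 12.81, then 11.23 and 11.04, a fall of 1.585. Cxcl12, a chemokine of mesenchymal cells, fell by 1.575 at one probe and by 1.345 at the other. Col6a3, a collagen VI chain, fell by 1.31 at its brightest probe, whereas its dim probes had log2 differences of -0.285 and -0.19 that did not pass. Tcf4, a helix-loop-helix factor counted among these falls, fell by 1.115. It is a different gene from Tcf7l2, the connective tissue gene of the list whose protein is also called TCF4. Tcf7l2 had a log2 difference of 0.305 and did not pass (limma, adjusted p = 0.128). The small proteoglycan genes Dcn and Bgn each rose, by 0.855 or less, and Pdgfra, a receptor of nearly all this mesenchyme, read 13.86 and 13.85, then 13.91 and 13.85.

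Genes that act with Osr1 in intermediate mesoderm, kidney and foregut had 4 falls and 2 rises among 15 measured members, and 9 did not pass. This is 40% against 16.9%, with a median log2 difference of -0.045. Wnt2, a ligand known with Osr1 from foregut mesenchyme, read 10.02 and 9.84, then 7.86 and 7.71, a fall of 2.145 (limma, adjusted p = 0.00235). Six2, a homeobox factor of nephron progenitors, fell by 1.02, and Foxd1, known from kidney stroma, by 1.21. The zinc finger gene Sall1 rose by 0.865 and the T-box gene Tbx5 by 0.70, each at the brightest of 2 probes. The second probes had log2 differences of -0.03 and -0.10 that did not pass, and the means over both probes did not pass either (limma, adjusted p = 0.0545 and 0.115).

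Odd-skipped proteins can recruit Groucho corepressors, as known from Drosophila, and the mouse relatives are the Tle genes. This list held 6 measured Tle genes, of which Tle5 and Tle6 are divergent members, and Hdac2, a histone deacetylase gene. Of these 7, 3 rose, 4 did not pass and 0 fell, with 42.9% called against 16.9% and a median log2 difference of -0.165. All 3 that rose were Tle genes, and the median of the 6 Tle genes was 0.245. Hdac2 had a log2 difference of -0.325 and did not pass (limma, adjusted p = 0.0863), though it passed with a variance trend (adjusted p = 0.0136). Tle6 rose by 1.095, Tle2 by 1.065 and Tle4 by 0.655, the last from 12.21 and 12.16 to 12.89 and 12.79. The brightest probes of Tle3, Tle5 and Tle1 had log2 differences of -0.405, -0.30 and -0.165 and did not pass. Dimmer probes of Tle1 and Tle3 did pass, with falls of 0.515 and 0.805, and the second probe of Tle2 did not. The Tle genes therefore differ by probe as well as by gene, and the part of each transcript that a probe reads is not known.

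Profiles over the 4 arrays were compared by the Euclidean distance between log2 values centred on each gene's own mean, which counts both the direction and the size of a difference. The gene nearest to Osr2 was Cbln4, a secreted cerebellin, at a distance of 0.199. It read 11.95 and 12.09, then 8.31 on both OE arrays. Next came Barx1 (0.567), the nuclear receptor gene Nr5a2 (0.726), the secreted matrix protein genes Smoc1 (0.76) and Smoc2 (0.844), and Shox2 (0.858). All 6 were read at lower levels on both OE arrays, by 2.86 to 3.71 log2 units.

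The nearest gene to Osr1 was Pax1, a paired box gene of pharyngeal pouches and vertebral precursors, at a distance of 0.132. It read 9.02 and 8.56, then 6.67 and 6.43, and so shared with Osr1 the wider gap between its controls. Its OE readings were under 6.79, the lower quartile, where the scale has little range. Wnt2 (0.276), the WNT antagonist gene Dkk4 (0.303), the centromere protein gene Cenpv (0.351), Fam32a (0.373) and the zinc finger gene Bnc1 (0.375) followed. Neither member was the other's nearest gene. At a distance of 1.43, Osr1 was number 14 from Osr2 among 16636 genes, and Osr2 was number 323 from Osr1. These likenesses rest on 4 arrays of the contrast that chose the members and are descriptions only.

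**Figure D4:**
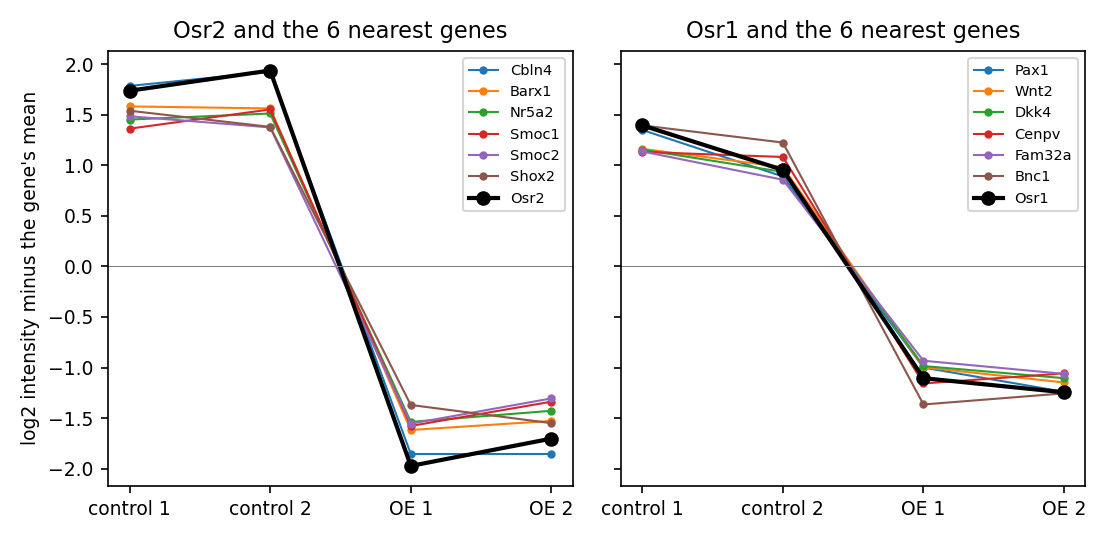
Log2 intensity minus the gene's own mean on each of the 4 arrays for Osr2 (left) and Osr1 (right), in black, with the 6 genes nearest to each by Euclidean distance. Cbln4 follows Osr2 most closely (distance 0.199) and Pax1 follows Osr1 (distance 0.132), including the gap between the control arrays.

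Of the 13 measured genes that lie closest to Osr1 and Osr2, 1 passed the test, Pop1 near Osr2. Osr2 lies on chromosome 15 and Osr1 on chromosome 12 in the RefSeq gene table of GRCm38.p6, which was used here only for the order of genes. The 4 protein-coding genes on each side were taken after the members' values were seen. All 8 neighbours of Osr1 were measured, and 0 passed the adjusted threshold in limma, against 16.9% of all named genes. At an unadjusted p under 0.05, 0 of these 8 and 3 of the 5 measured neighbours of Osr2 passed, against 33% of all probes. The median log2 difference of the 8 was -0.0125. The immediate neighbours Ttc32 and Nt5c1b had log2 differences of 0.08 and -0.03, but their control means of 6.18 and 7.545 lay too near the minimum of the scale for a fall like that of Osr1 to be read. The brighter neighbours Rdh14, Wdr35 and Laptm4a, with control means of 10.895, 9.075 and 13.21, had log2 differences of 0.005, -0.28 and -0.12.

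Of the 8 neighbours of Osr2, 5 were measured. The gene next to it on one side, Vps13b, read 10.65 and 10.36, then 10.28 and 10.24, with a log2 difference of -0.245 at its brightest probe that did not pass (limma, adjusted p = 0.261). Kcns2, Nipal2 and Fbxo43 had log2 differences of -0.455, -0.325 and 0.335 and did not pass. Pop1, a ribonuclease subunit gene, fell by 0.595 (limma, adjusted p = 0.0245), and its second probe had a log2 difference of -0.10 that did not pass. With the mean of each gene's probes, Pop1 did not pass (limma, adjusted p = 0.0909) and Kcns2 did (adjusted p = 0.0367). Of the 13 measured neighbours, 4 (Fbxo43, Matn3, Ttc32 and Kcns3) had control means below the lower quartile of 6.79. A 2-fold fall could hardly be read there, and 0 of the other 9 was lower by 2-fold. Falls of that size were rare, as only 1% of all probes lay below -1.124, so nothing is read from this count.

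**Figure D5:**
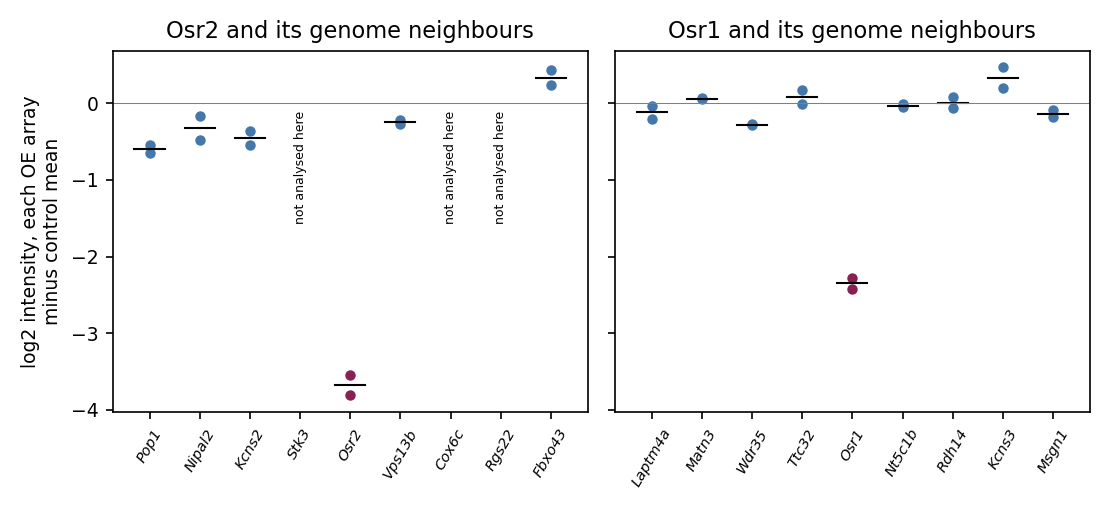
Log2 intensity on each Bmp4 OE array minus the control mean (points, with the mean as a bar) for Osr2 (left) and Osr1 (right), in purple, and for the 4 protein-coding genes on each side in gene order, in blue. The odd-skipped genes stand at -3.675 and -2.35, and the mean bars of the measured neighbours lie between -0.595 and 0.335. Neighbours with control means near the scale minimum (Fbxo43, Matn3, Ttc32, Kcns3) had little room to fall. The odd-skipped genes were chosen from this contrast and the neighbours by position alone, so the distance between them is not a result.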

How the data were processed

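Per the labels' protocols, total RNA of dissected mandibles was turned into aminoallyl aRNA that carried the Cy5 dye. Each sample had its own array. The authors deposited log2 intensities of 29922 probes. The authors' values share 1 distribution on all 4 arrays (largest difference between sorted columns 0), so they had been quantile-normalised, which hides any shift of most genes. The log base was read from the maximum of 16. Background correction and scanner: not given in the sources used here.

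Probes were named from the platform annotation, with 3410 of 21020 symbols updated through RefSeq synonyms. The brightest probe by mean over 4 arrays stood for a gene. Differences between groups were fitted with limma 3.58.1 in R 4.3.3 (lmFit, eBayes, no covariate, 2 residual degrees of freedom) on all probes, two-sided. P-values were adjusted over all probes (Benjamini-Hochberg). Simulated data were used to test the fit. Osr1 and Osr2 were given no test. With 2 arrays a group, exact permutation gives no p under 0.333.

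The members and lists were chosen with earlier results of these data known. Named genes were the 5 list members with the largest difference, usual readouts of each pathway, and the 6 nearest profiles. Other list members and the genome neighbours were named after their values were seen. Of 107 list genes, 99 were measured. Barx1 is in 3 lists, and Fgf10, Foxd1, Foxf1, Foxf2, Meox2, Msx1 and Pax9 are in 2 each. Alternatives were another log offset, median centring, filters on dim probes, a variance trend, a replicate block, the mean of a gene's probes, the study's own threshold and leaving out each array.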

Additional observations from a re-analysis of the deposited data

How the results depend on the processing

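The differences of Osr2 and Osr1 did not change direction under any alternative run, with -3.81 to -3.54 for Osr2 and -2.57 to -2.13 for Osr1 when 1 array was left out. The Osr2 minus Osr1 difference then ranged from -1.645 (without control replicate 1) to -1.005 (without control replicate 2). The adjusted calls of limma rest on all 4 arrays. Leaving out control replicate 1, control replicate 2, Bmp4 OE replicate 1 or Bmp4 OE replicate 2 in turn left 0 probes higher, 0 lower, 0 genes in each list and 0 neighbours past an adjusted p of 0.05. At an unadjusted p under 0.05 there were then 6020, 7947, 6650 and 7363 probes, against 9868 with all arrays. Bmp4 ranged from 3.22 to 3.33 and Msx1 from 1.00 to 1.02, with lowest adjusted p-values of 0.138. Differences near 0 changed sign between these fits, from -0.06 to 0.08 for Pax9, -0.335 to 0.005 for Tle1, -0.04 to 0.16 for Matn3, -0.065 to 0.005 for Nt5c1b, -0.065 to 0.075 for Rdh14 and -0.01 to 0.17 for Ttc32.

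The replicate number of the titles was also fitted as a replicate block, although same-numbered arrays did not deviate together (correlation across probes -0.0711) and share only a number. With the block, 0 probes, 0 genes in each list and 0 neighbours passed, with 8724 probes at an unadjusted p under 0.05. Bmp4 then stood at 3.275 and Msx1 at 1.01, both with an adjusted p of 0.0745. This fit leaves 1 degree of freedom fewer than the fit without it.

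With the threshold of the study itself (2-fold, unadjusted p under 0.05), 778 of 29922 probes passed, 361 higher and 417 lower, in place of 4427. Of the lists, 6 of 21 palatal, 1 of 16 Hedgehog, 5 of 17 connective tissue and 3 of 15 intermediate mesoderm genes passed. Among neighbours 0 of 13 passed, and nothing is read from this because few of all probes did. The list shares are not read as an excess, since the lists hold few dim genes. Without the probes below the median, 3 Hedgehog genes passed in place of 5. Without those below the lower quartile, 2 neighbours passed in place of 1, because Kcns2 was added. The neighbour count was chosen after seeing the data. The other counts stayed within 1.5 times. Among single genes outside the block and the fits without an array, the call of Hhip was lost with the variance trend, and those of Sall1, Tbx5 and Pop1 with the mean of probes. Calls were gained for Col2a1 under 4 alternatives, for Jun and Kcns2 under 2 each and for Hdac2 under 1.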
